A study of Mus musculus with 4 samples.

Results

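Serum response factor (*Srf*), the actin-binding protein gene *Abra* and 8 genes of the contractile apparatus were followed in the glomeruli of *Gak*-KO mice and their controls. The 10 genes were chosen by a rule written with the changes on these same arrays in view, so their changes are given here as a description and no test is put on them. Each had exactly 1 probe set annotated with its symbol alone and no shared probe set, so all 10 were measured, out of 22180 genes on the arrays. Glomeruli were isolated from the kidney cortex with perfused Dynabeads and a Percoll gradient, and their RNA was hybridised to 4 arrays. Each group had 2 arrays and each array pooled 3 animals, which makes 6 mice in a group. All mice were C57BL/6 and 3 weeks old by the labels and the methods, while 1 figure legend of the study gives another age. *Gak*-KO mice carried floxed *Gak* (*Gak* fl/fl, coding exon 1 flanked by *loxP* sites) together with *Pod-Cre-Rosa-Dtr* fl, which places Cre under the podocin promoter and adds a diphtheria toxin receptor allele. Controls were Cre-negative littermates by the methods, and the labels call them only control. The deletion is limited to podocytes, whereas the arrays read whole glomeruli with their mesangium, endothelium and remaining vessel and tubule fragments. Fewer cells of a type and less RNA per cell cannot be told apart in such samples.

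SRF is a transcription factor that binds a short DNA element, the CArG box, in promoters of cytoskeletal and immediate early genes. It works with either of 2 kinds of partner. Myocardin-related factors are held back by monomeric actin and released when RhoA drives actin into filaments, and ternary complex factors of the Elk family respond to MAP kinases. The protein of *Abra* binds actin and raises SRF activity in muscle cells, so it lies upstream of SRF, and the contractile genes lie downstream of it. In the kidney, smooth muscle actin and its companions are abundant in arterioles and appear in mesangial cells during injury, and podocytes hold their foot processes on an actin scaffold.

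Both groups have an array 1 and an array 2. Arrays of the same number were compared, giving pair 1 and pair 2, which the design text describes as independent experiments. Values are log2 signals made by the authors with RMA. A *Z*-ratio is the difference of the *Z* scores of a gene on the 2 arrays of a pair, divided by the standard deviation that such differences have across the array. The call required a *Z*-ratio beyond the normal limit for a two-sided p of 0.05, in the same direction in both pairs. The smallest log2 increase past the limit was 0.57 in pair 1 and 0.46 in pair 2, and some genes with such increases did not pass. Of all genes, 113 were called higher (0.509%) and 52 lower (0.234%). Standard errors come from a limma fit with the pair as a block. Arrays 1 are labelled male and arrays 2 female, so sex label, array number and experiment cannot be told apart, and the sex labels go against the data. *Xist*, which is transcribed in female cells, was at 9.69 and 9.61 on the arrays labelled male and at 8.55 and 9.21 on those labelled female. The Y-linked *Uty* was lowest in control 1 (4.65) and read 6.00 in control 2, 5.59 in *Gak*-KO 1 and 5.57 in *Gak*-KO 2. *Gak* itself read 8.25 and 8.35 in the controls and 8.64 and 8.39 in *Gak*-KO glomeruli. Which exons its probe set covers was not examined, and other glomerular cells keep the gene, so this signal does not check the genotype.

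*Abra* had the largest change of the 10 genes and ranked 3 of all 22180 genes by mean increase. The controls had log2 signals of 2.96 (array 1) and 3.32 (array 2), and the *Gak*-KO glomeruli 4.25 and 5.64. Both *Gak*-KO arrays lay above both controls, the lower of them by 0.93, and *Gak*-KO 2 stood well above *Gak*-KO 1. The change was 1.29 in pair 1 and 2.32 in pair 2, with a mean of 1.81 (SE 0.30). The *Z*-ratios were 4.33 and 9.54. Both controls were below 3.63, the level under which 30% of all genes had their mean signal, so *Abra* passed a filter on low signals through its *Gak*-KO arrays alone. Whether the control signals were above background is not known from these values, and the size and rank of the change rest on them. The mean change stayed between 1.11 without *Gak*-KO 2 and 2.50 without *Gak*-KO 1.

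**Figure D1:**
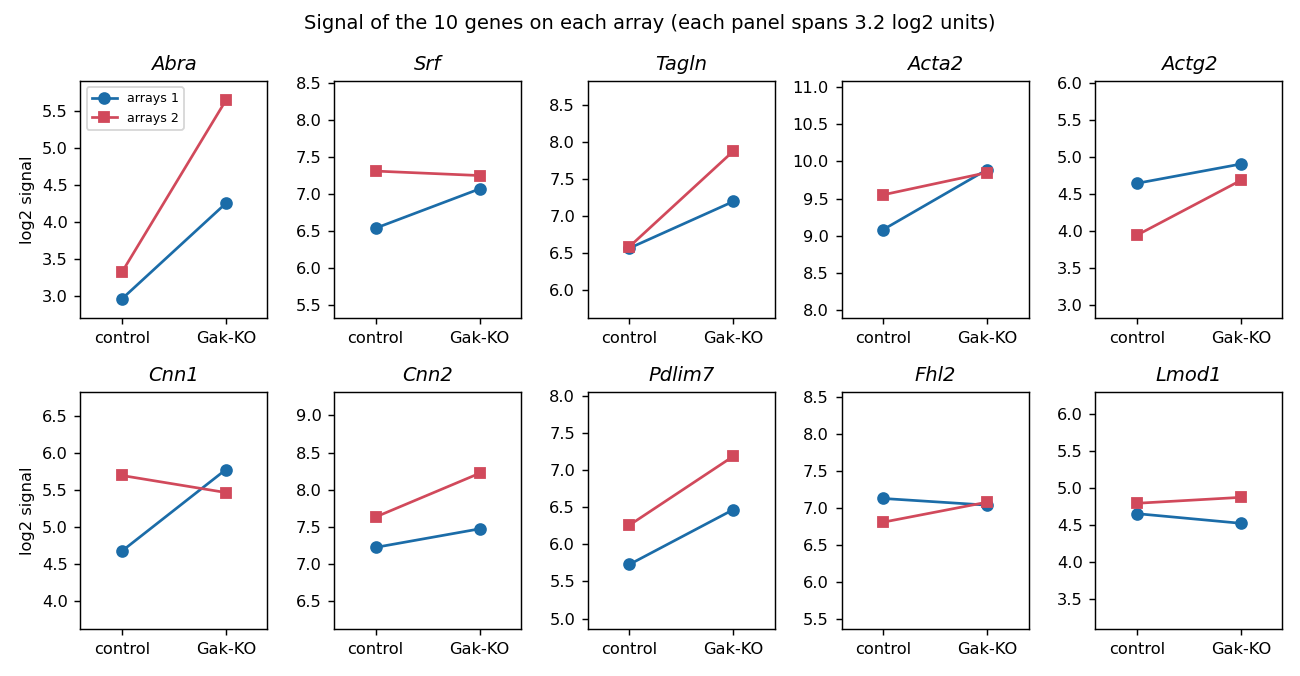
Log2 signal of each of the 10 genes on the 4 arrays, with control on the left and *Gak*-KO on the right of each panel, and a line joining the arrays of the same number. *Abra*, *Tagln*, *Acta2*, *Actg2*, *Cnn2* and *Pdlim7* are higher in *Gak*-KO glomeruli on both lines, and *Srf*, *Cnn1*, *Fhl2* and *Lmod1* have opposite slopes.

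The signal of *Srf* differed less between genotypes than between the 2 control arrays. Its values were 6.54 and 7.31 in controls 1 and 2, and 7.07 and 7.25 in the *Gak*-KO arrays 1 and 2. Both *Gak*-KO arrays therefore lay between the controls. The changes had opposite signs, 0.53 in pair 1 and -0.06 in pair 2, with a mean of 0.23 (SE 0.19) and *Z*-ratios of 1.71 and -0.29. Control 1 was the lowest array, and the mean was -0.15 without it.

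*Tagln*, which encodes the actin cross-linking protein transgelin of smooth muscle, and *Pdlim7*, a PDZ-LIM scaffold that attaches signaling proteins to actin filaments, were the other called genes. *Tagln* was at 6.57 and 6.59 on the controls, 7.20 on *Gak*-KO 1 and 7.88 on *Gak*-KO 2. The controls were nearly equal and both *Gak*-KO arrays were higher. Its mean change was 0.95 (SE 0.21), or 1.94-fold, from 0.62 and 1.29 in the pairs, with *Z*-ratios of 2.03 and 5.23. Pair 1 was thus just inside the limit. *Pdlim7* read 5.73 and 6.26 in controls 1 and 2, then 6.47 and 7.19 in *Gak*-KO 1 and 2. Its groups were 0.21 apart, less than the difference of 0.53 between its controls. It changed by 0.74 in pair 1 and 0.93 in pair 2, with a mean of 0.83 (SE 0.11), or 1.78-fold, and *Z*-ratios of 2.44 and 3.77.

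In all, 3 of the 10 genes were called higher and 0 lower, against the 0.509% and 0.234% of all genes given above. In pair 1 alone, 5 of the 10 were past the limit on the higher side (*Abra*, *Tagln*, *Acta2*, *Cnn1* and *Pdlim7*), where 2.88% of all genes were. In pair 2 alone, 5 were past it (*Abra*, *Tagln*, *Actg2*, *Cnn2* and *Pdlim7*), where 3.01% of all genes were. Since the genes were picked with these contrasts known, nothing is read from the difference to the background. The study's list of changed genes, made with its own *Z*-ratios, holds *Abra* and *Pdlim7* but not *Tagln*. The study also ran PCR on candidate genes in glomeruli, and its primers include *Abra*, but its text gives no PCR value for it. The call on *Abra* was made in each of the 14 other settings tried, which all reuse the values by which it was chosen, and in the setting without genes of low signal it was kept by its *Gak*-KO arrays. The calls on *Tagln* and *Pdlim7* were both lost with *Z* scores computed from every probe set, at the stricter limit for a p of 0.01 and without *Gak*-KO 2, and that on *Tagln* also with weakly expressed genes removed. With 1 array left out and the pairing dropped, the number called was 4 without control 1, 5 without control 2, 4 without *Gak*-KO 1 and 1 without *Gak*-KO 2. Of all genes, 1197, 1261, 1264 and 1108 were called in the same order, beside 165 with both pairs required. The criterion without pairs is thus passed by more genes.

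**Figure D2:**
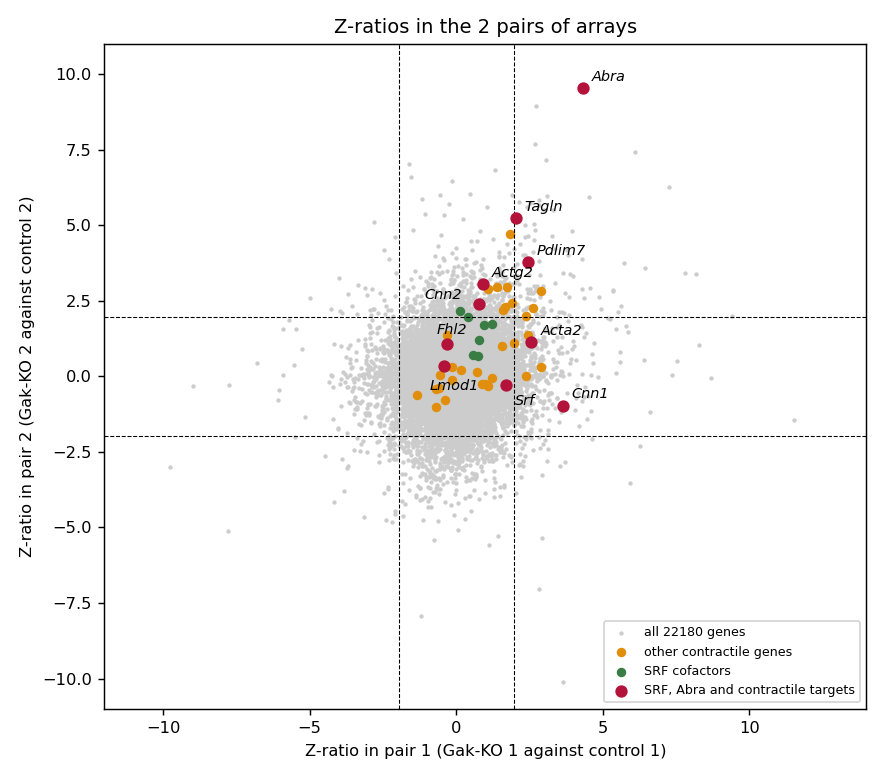
*Z*-ratio in pair 1 (horizontal) against pair 2 (vertical) for all 22180 genes (grey), other contractile genes (orange), SRF cofactors (green) and the 10 genes (red, named). Dashed lines mark the limits of the call, and *Abra*, *Tagln* and *Pdlim7* lie beyond both in the upper right.

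The smooth muscle actins were next in size. *Acta2*, the smooth muscle alpha actin of arterioles and activated mesangial cells, read 9.08 and 9.55 in controls 1 and 2, then 9.89 and 9.85 in *Gak*-KO 1 and 2. The *Gak*-KO arrays were nearly equal and lay 0.30 above the higher control. It changed by 0.81 and 0.30, with a mean of 0.55 (SE 0.17), or 1.47-fold, and *Z*-ratios of 2.57 and 1.13, so only pair 1 was past the limit. *Actg2*, the gamma actin of visceral smooth muscle, read 4.64 and 3.94 in controls 1 and 2, then 4.90 and 4.68 in *Gak*-KO 1 and 2. Here the groups were 0.04 apart and control 2 was the array that stood low. *Actg2* changed by 0.26 in pair 1 and 0.74 in pair 2, with a mean of 0.50 (SE 0.16), or 1.41-fold, and *Z*-ratios of 0.91 and 3.05. That mean ranged from 0.15 without control 2 to 0.85 without control 1.

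Of the calponins, which bind actin and restrain the myosin motor, *Cnn1* of differentiated smooth muscle had opposite changes in the pairs. It read 4.68 and 5.70 in controls 1 and 2, then 5.78 and 5.47 in *Gak*-KO 1 and 2. Control 1 alone stood low, about 1 log2 unit below control 2, and the other arrays lay close together. The changes were 1.10 and -0.24, with a mean of 0.43 (SE 0.38), or 1.35-fold, and *Z*-ratios of 3.64 and -0.97. *Cnn2*, the calponin of non-muscle and smooth muscle cells, read 7.22 and 7.63 in controls 1 and 2, then 7.47 and 8.22 in *Gak*-KO 1 and 2. *Gak*-KO 1 was below control 2, so the groups overlapped. The change was 0.25 in pair 1 and 0.60 in pair 2, with a mean of 0.42 (SE 0.14), or 1.34-fold, and *Z*-ratios of 0.78 and 2.38, and it was 0.05 without *Gak*-KO 2.

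*Fhl2*, a LIM-only cofactor that binds SRF and other transcription factors, and *Lmod1*, leiomodin, which nucleates actin filaments in smooth muscle, had the smallest changes. *Fhl2* was at 7.13 and 6.81 in the controls and 7.04 and 7.08 in the *Gak*-KO arrays, which both fell between the controls. It differed by -0.08 and 0.27 in the pairs, with a mean of 0.09 (SE 0.14). *Lmod1* was at 4.65 and 4.79 in the controls and 4.52 and 4.87 in the *Gak*-KO arrays, with the *Gak*-KO arrays at both ends of the range. Its differences were -0.13 and 0.08, with a mean of -0.03 (SE 0.11).

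Taking the 10 genes as a list, both *Gak*-KO arrays were above both controls for 5 (*Abra*, *Tagln*, *Acta2*, *Actg2* and *Pdlim7*) and below them for 0, and 8.8% of all genes had the first pattern. With *Cnn2*, 6 were higher in both pairs, under either other scaling too, as were 22.3% of all genes, and the other 4 (*Srf*, *Cnn1*, *Fhl2* and *Lmod1*) had opposite signs. The median change was 0.58 in pair 1 and 0.45 in pair 2, beside 0.00 and 0.00 over all genes. The called gene nearest to the limit was *Tagln*, with *Z*-ratios of 2.03 in pair 1 and 5.23 in pair 2. The nearest genes not called, at some distance from the limit, were *Acta2* and *Actg2*, whose lower *Z*-ratios were 1.13 and 0.91. *Gak*-KO 2 was the highest array for 5 of the 10 genes and *Gak*-KO 1 for 3, while control 1 was the lowest for 7. By limma, 641 of all genes were higher and 563 lower at an unadjusted p under 0.05, and 0 passed the Benjamini-Hochberg adjustment, the smallest adjusted p being 0.833. An exact permutation test of 2 arrays against 2 cannot go below 0.333.

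The difference between the arrays 2 and the arrays 1, which was not used in choosing the genes, was tested with limma over all 22180 genes. Averaged over both groups, 8 of the 10 genes were higher on the arrays 2, all but *Actg2* and *Fhl2*, and so were 38.4% of all genes. After quantile normalization 8 of the 10 and 53.2% of all genes were, and after centring 9 and 57.5%. Within each group, 6 of the 10 were higher on array 2 than on array 1, as were 27.4% of all genes. After quantile normalization these were 7 of the 10 and 40.3%, and after centring 7 and 44.3%. *Acta2* and *Cnn1* were higher on control 2 than on control 1, by 0.47 and 1.02, but differed by -0.05 and -0.31 between the *Gak*-KO arrays. After Benjamini-Hochberg adjustment, 0 of the 10 and 0 of all genes (0%) were called, with a smallest adjusted p of 0.0809 over all genes and 0.085 among the 10, and 7278 of all genes had an unadjusted p under 0.05. The clearest of the 10 were *Pdlim7*, higher by 0.63 (SE 0.11, limma adjusted p = 0.085), and *Cnn2*, higher by 0.58 (SE 0.14, limma adjusted p = 0.105), each in both groups. *Abra* was higher on the arrays 2 by 0.87 (SE 0.30, limma adjusted p = 0.164), by 0.35 between the controls and by 1.39 between the *Gak*-KO arrays. This difference depended on the scaling of the arrays. Identical values occurred in many probe sets within a pair and in 0 between the pairs. Separate processing of the pairs thus cannot be told apart from experiment or sex label, and was not tested. Over all genes the median difference of arrays 2 minus arrays 1 was -0.10 with the signals as deposited. It was 0.03 after quantile normalization and 0.06 after centring each array on its median. With quantile normalization, 3225 genes (14.5%) were called, with *Cnn2* (limma adjusted p = 0.0406) and *Pdlim7* (limma adjusted p = 0.0296) among them. With centring, 3618 genes (16.3%) were called, with *Abra* (limma adjusted p = 0.0475), *Cnn2* (limma adjusted p = 0.0301) and *Pdlim7* (limma adjusted p = 0.0217), and the difference of *Fhl2* turned from -0.14 to 0.02.

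The CArG box was searched in the RefSeq promoter windows, from 250 bases before to 50 bases after each annotated start, on the mouse build GRCm38. The box is 10 bases, CC, then 6 bases that are each A or T, then GG, which reads the same on both strands, so each position was counted once. Of the 10 genes, 7 had an entry, with 8 windows in all (*Fhl2* had 2 starts). The windows of 3 of the 7 genes held a box (42.9%), compared with 488 of 27025 genes (1.81%) and 535 of 32851 windows (1.63%) over the whole table. In the lists described below, 5 of 16 paralogs (31.2%), 1 of 6 immediate early genes (16.7%) and 4 of 26 other contractile genes (15.4%) held one. In 6 SRF cofactors and 15 RhoA and actin signaling genes there were 0. The 10 genes were listed as SRF and contractile targets, so nothing is read from their share. *Srf* itself held 2, starting at -82 and -62 from its start site, and 6 windows of the table held 2 or more. *Cnn2* held 1 at -56, and *Fhl2* held 1 in each window, at -31 and -96. With 1 mismatch allowed, *Acta2* and *Lmod1* were added, giving 5 of 7 genes (71.4%) beside 23.8% over the table. The share was then 66.7% of immediate early genes, 56.2% of paralogs and 46.2% of other contractile genes. It was 33.3% of SRF cofactors and 20.0% of RhoA and actin signaling genes. The windows of *Cnn1* and *Pdlim7* held neither. Among the 10 genes, none of those with a box or a box with 1 mismatch was called. Of their 3 called genes only *Pdlim7* had an entry, and a match of letters is not a measured site. In the lists described below, the called genes *Cald1*, *Flna* and *Nr4a1* each held a box with 1 mismatch, and none was found for the called *Actn1*. The stretches below carry the boxes in capitals, those with 1 mismatch included, and are shown so that their spacing can be compared. They lie at chr17:46556177-46556259 (minus strand) for *Srf*, chr10:79988529-79988568 (plus strand) for *Cnn2*, chr1:43163968-43164007 and chr1:43196833-43196872 (minus strand) for the 2 starts of *Fhl2*, chr19:34255383-34255472 (minus strand) for *Acta2* and chr1:135324609-135324673 (plus strand) for *Lmod1*.
*Srf*: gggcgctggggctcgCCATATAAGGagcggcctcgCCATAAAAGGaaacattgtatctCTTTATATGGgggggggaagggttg
*Cnn2*: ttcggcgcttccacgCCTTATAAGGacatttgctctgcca
*Fhl2*, start 1: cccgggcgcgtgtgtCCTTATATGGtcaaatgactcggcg
*Fhl2*, start 2: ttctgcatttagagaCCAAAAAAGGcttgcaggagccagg
*Acta2*: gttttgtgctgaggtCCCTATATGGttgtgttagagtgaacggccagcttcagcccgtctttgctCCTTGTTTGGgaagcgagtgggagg
*Lmod1*: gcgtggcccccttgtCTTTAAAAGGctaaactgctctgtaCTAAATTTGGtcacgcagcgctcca
In *Srf*, the last box has 1 mismatch. Both boxes of *Acta2* and both of *Lmod1* have 1 mismatch, and those of *Cnn2* and *Fhl2* have none.

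**Figure D3:**
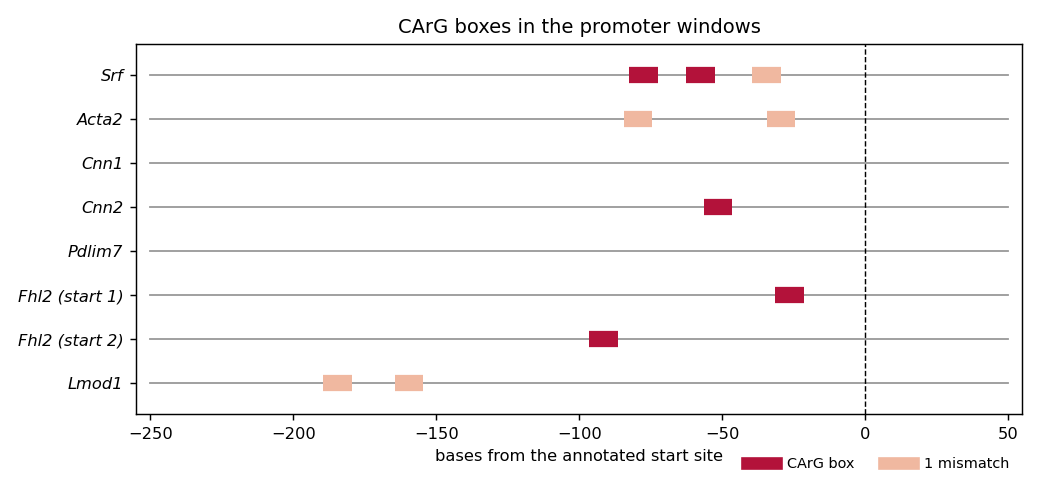
Position of CArG boxes (dark red) and of boxes with 1 mismatch (light red) in the 8 promoter windows of 7 of the genes, in bases from the annotated start (dashed line). *Srf* has 2 boxes, at -82 and -62, and another with 1 mismatch, and *Cnn1* and *Pdlim7* have none.

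None of the 7 measured partners of SRF was called. With the signals as deposited, each was higher in *Gak*-KO glomeruli in both pairs, but after quantile normalization or centring 6 of the 7 were, since *Myocd* turned to -0.02 in pair 1. Of all genes, 22.3% were higher in both pairs as deposited, 21.2% after quantile normalization and 18.6% after centring. The deposited signals differed by 0.02 to 0.38 in pair 1 and by 0.18 to 0.52 in pair 2, with medians of 0.24 and 0.42. Both *Gak*-KO arrays were above both controls for 5 of them, and for 2 under either other scaling, where 8.8% of all genes had this pattern as deposited, 7.72% after quantile normalization and 6.44% after centring. *Mrtfb*, a myocardin-related factor, had the largest mean difference, with 7.36 and 7.45 in the controls and 7.74 and 7.89 in the *Gak*-KO arrays (mean 0.41, SE 0.10). *Mrtfa*, the other myocardin-related factor, was at 6.17 and 6.35 in the controls and 6.41 and 6.65 in the *Gak*-KO arrays (mean 0.27, SE 0.10). *Myocd*, encoding the smooth muscle cofactor myocardin, was at 4.14, 4.15 and 4.16 on control 1, control 2 and *Gak*-KO 1, and at 4.67 on *Gak*-KO 2. It was the only cofactor past the limit in any pair, with *Z*-ratios of 0.13 and 2.16. The ternary complex factors differed by 0.18 and 0.18 for *Elk1*, by 0.30 and 0.42 for *Elk3* and by 0.24 and 0.18 for *Elk4* in pairs 1 and 2. *Scai*, an inhibitor of the myocardin-related factors, differed by 0.13 and 0.49. With 1 pair or 1 array left out, 0 to 2 of the 7 passed the limit, as did 1108 to 1323 of all 22180 genes.

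Of the RhoA and actin signaling genes upstream of SRF, 17 of 19 listed were measured, 0 were called and the medians were 0.09 and 0.12 in the pairs. Both *Gak*-KO arrays were above both controls for 7 of the 17 (4 after quantile normalization and 6 after centring) and below them for 0. Of all genes, 8.8% were above, 7.72% after quantile normalization and 6.44% after centring. *Rhoa* differed by -0.03 and 0.19 and its kinase *Rock1* by 0.05 and 0.19. The largest mean was that of *Ablim3*, an actin-binding LIM protein that works with ABRA in muscle cells, with 6.82 and 6.78 in the controls and 7.22 and 7.45 in the *Gak*-KO arrays (mean 0.54, SE 0.12, *Z*-ratios of 1.30 and 2.70). It is named after its values were seen.

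Of the other contractile genes, 30 of 32 listed were measured, 3 were called higher and 0 lower, with medians of 0.35 in pair 1 and 0.09 in pair 2. Of all genes, 0.509% were called higher and 0.234% lower. Both *Gak*-KO arrays were above both controls for 11 of the 30 (10 under either other scaling) and below them for 1. The share of all genes above was 8.8%, 7.72% after quantile normalization and 6.44% after centring. *Mustn1*, named after its values were seen, had the largest mean change (0.87, SE 0.19) but was not called, with *Z*-ratios of 1.84 and 4.71. *Actn1*, the alpha-actinin that cross-links actin at adhesions, had 8.28 and 8.99 in the controls and 9.19 and 9.70 in the *Gak*-KO arrays, and its groups did not overlap. Its mean change was 0.81 (SE 0.11), with *Z*-ratios of 2.91 and 2.83. *Cald1*, caldesmon, had 7.01 and 7.95 in the controls and 7.81 and 8.52 in the *Gak*-KO arrays, so *Gak*-KO 1 was below control 2. It changed by 0.68 (SE 0.12), with *Z*-ratios of 2.61 and 2.25. *Flna*, the actin cross-linker filamin A, had 7.67 and 8.04 in the controls and 8.41 and 8.54 in the *Gak*-KO arrays. It changed by 0.62 (SE 0.12), and its *Z*-ratios of 2.39 and 1.99 were just past the limit. Leaving out control 1 or *Gak*-KO 2 and dropping the pairing ended all 3 of these calls. *Myl9*, the regulatory light chain of smooth muscle myosin, differed by 0.50 and 0.56, the intermediate filament gene *Des* by 0.53 and 0.72, the tropomyosin *Tpm1* by 0.34 and 0.72 and the adhesion protein gene *Vcl* by 0.50 and 0.27. None of these passed the limit in both pairs here, while the study's list of changed genes has *Des* past it in both of its batches. That list also holds *Actn1*, but not *Cald1* or *Flna*. *Myh11*, the smooth muscle myosin heavy chain, was at 7.56 and 7.99 in the controls and 7.90 and 7.93 in the *Gak*-KO arrays, so both *Gak*-KO values lay between the controls.

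**Figure D4:**
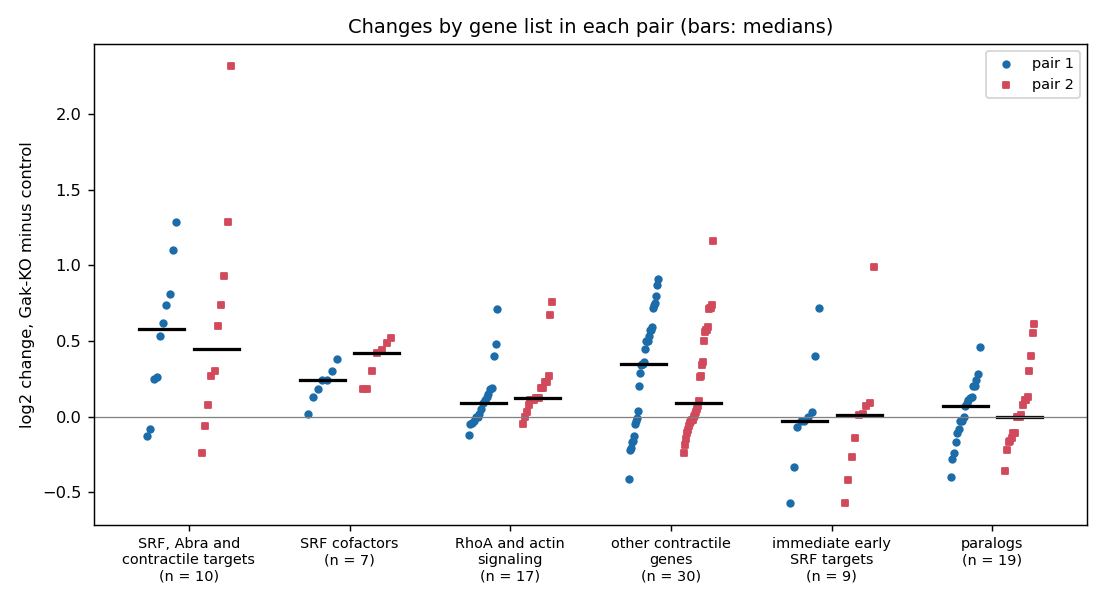
Log2 change (*Gak*-KO minus control) of every measured gene of 6 lists, in pair 1 (blue circles) and pair 2 (red squares), with black bars at the medians. The 10 genes have medians of 0.58 and 0.45, the SRF cofactors 0.24 and 0.42, and the paralogs 0.07 and 0.00.

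The immediate early genes, which SRF drives with the ternary complex factors, had no common direction with the signals as deposited. Of 10 listed, 9 were measured, 1 was called higher and 0 lower, and the medians were -0.03 and 0.01. In both pairs 2 of the 9 were higher and 3 lower, 2 and 6 after quantile normalization and 2 and 4 after centring. Of all 22180 genes, 4956 were higher and 5389 lower, 4697 and 7210 after quantile normalization and 4116 and 8104 after centring. Both *Gak*-KO arrays were above both controls for 2 of the 9 and below them for 3, as for 1952 and 1823 of all genes. *Nr4a1*, an orphan nuclear receptor, had 6.84 and 7.43 in the controls and 7.56 and 8.42 in the *Gak*-KO arrays, with changes of 0.72 and 0.99 and *Z*-ratios of 2.34 and 4.0. It too was not called without control 1 or without *Gak*-KO 2. *Fos* was at 6.93 and 7.34 in the controls and at 6.36 and 6.93 in the *Gak*-KO arrays, so that *Gak*-KO 2 equalled control 1 to the second decimal. It differed by -0.57 and -0.42, with *Z*-ratios of -1.92 and -1.75, just short of the limit. *Fosb*, named after its values were seen, differed by -0.33 and -0.57. Its *Z*-ratios were -1.07 and -2.34, so only pair 2 was past the limit. *Egr1* differed by -0.07 and 0.02.

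Near relatives of the 10 genes were compared to see whether whole families moved. Of 19 paralogs, all measured, 0 were called in either direction, with medians of 0.07 and 0.00. The striated muscle actins *Acta1* and *Actc1* differed by 0.20 and -0.11 and by 0.07 and -0.17, and cytoplasmic *Actb* by 0.28 and 0.11. *Cnn3*, the remaining calponin gene, differed by -0.08 and 0.11. *Tagln2*, the transgelin of non-muscle cells, came nearest to the limit, with 8.36 and 8.60 in the controls and 8.82 and 9.15 in the *Gak*-KO arrays and *Z*-ratios of 1.44 and 2.17. Differences between these families and the 10 genes were not tested, and probe sets of close paralogs can read some of each other's RNA.

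Over the 4 arrays, the protein-coding genes most like *Abra* were *Adm* (adrenomedullin, a vasodilator peptide), *Anxa1* (annexin A1), *Ankrd1* (a stretch-responsive nuclear protein), *Ccn1* (a matricellular protein) and *Plod2* (a collagen lysyl hydroxylase), out of 18960. The measure was the root mean square difference between profiles centred on their own means, with 4 points each, and it is a description. The differences were 0.18 for *Adm*, 0.27 for *Anxa1*, 0.28 for *Ankrd1*, 0.31 for *Ccn1* and 0.37 for *Plod2*. *Adm* read 6.34 and 6.69 in controls 1 and 2, then 7.18 and 8.89 in *Gak*-KO 1 and 2, with changes of 0.83 and 2.2. Like *Abra*, it was highest by far on *Gak*-KO 2. *Ankrd1* was at 5.24 and 6.27 in the controls and 7.09 and 8.09 in the *Gak*-KO arrays, with nearly equal changes of 1.85 and 1.82.

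Markers of the cells that could carry these genes were read from the same arrays. Of the vascular smooth muscle and renin cell markers, 6 of 7 were measured, all but the renin gene *Ren1*, and 0 were called. Their mean levels were 5.63 and 5.81 in the controls and 5.91 and 5.77 in the *Gak*-KO arrays. *Rergl* was near the bottom of the range at 3.43 to 3.58. The 7 mesangial and pericyte markers, 0 called, had means of 7.28 and 7.07 in the controls and 7.40 and 7.30 in the *Gak*-KO arrays. *Myh11*, *Kcnmb1*, *Mrvi1* and *Des* stand both in these marker lists and among the other contractile genes. The 6 measured podocyte markers, 0 called, averaged 7.89 and 8.79 in controls 1 and 2, and 7.65 and 8.97 in *Gak*-KO 1 and 2 and were higher on array 2 in both groups for 6 of 6. Averaged over both groups, the 6 proximal tubule markers were lower on the arrays 2. Their means were 11.52 and 10.80 in the controls and 11.15 and 10.18 in the *Gak*-KO arrays. Yet *Slc22a6* was higher on control 2 than on control 1 by 0.11, and *Kap* on *Gak*-KO 2 than on *Gak*-KO 1 by 0.16. *Kap* was called lower, from 10.66 and 9.73 to 8.34 and 8.5, and 0 of the others were called. In pairs 1 and 2, *Lrp2* differed by -0.02 and -0.52, *Cubn* by 0.01 and -0.46 and *Slc34a1* by -0.0 and -0.29. *Slc5a12* differed by -0.31 and -0.29 and *Slc22a6* by 0.43 and -0.89. Tubule RNA was thus present on all 4 arrays, and *Gak*-KO 2, the array with the highest *Abra*, had the lowest tubule mean. Of 6 macrophage markers, *Cd68* was called higher, from 4.97 and 4.94 to 5.77 and 5.56, and 0 of the others were called. *Csf1r* differed by -0.26 and 0.80 in the pairs, *Lyz2* by -0.70 and 0.95, *C1qa* by 0.13 and -0.27, *C1qb* by 0.52 and 0.26, and *Adgre1*, at 3.19 to 4.03, by -0.10 and -0.13. The macrophage list means were 4.96, 5.14, 5.03 and 5.51 in the order control 1, control 2, *Gak*-KO 1 and *Gak*-KO 2. The 7 endothelial markers had means of 10.02, 10.23, 9.79 and 10.47 in that order and the 4 fibroblast markers 5.13, 5.42, 5.61 and 5.47, with *Lum* at 2.64 to 2.90, and 0 of either list were called. The 6 striated muscle markers, 0 called, had means of 4.11, 4.07, 4.19 and 3.99, with *Myh1* at 2.66 to 3.14. The part that cell composition had in the changes of the 10 genes was not tested.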

How the data were processed

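The authors deposited log2 signals of 41345 probe sets on 4 arrays, which the submitters' processing notes credit to RMA and limma without versions. The methods name the *Z*-ratio and its limit, and the ratio was computed here in its usual form. The published *Z*-ratios differ from those computed here. The title speaks of microRNA and the protocol names another array type than the probe set identifiers. Gene symbols came from the platform annotation, and 23521 probe sets carried 1 symbol. Where a gene had several, that of highest mean signal was used. Same-numbered arrays were paired, as independent experiments, and across genes the correlation of their deviations from the group means was 0.694. Values were identical in 1421 probe sets within pair 1 and 3735 within pair 2, among them none of the 10 genes. Between arrays of different number, 0 probe sets had identical values. Whether the 2 pairs were normalized apart from each other is not stated and was not tested.

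Changes and standard errors came from limma 3.58.1 (R 4.3.3) (residual degrees of freedom 1, prior 2.24), with moderated variances and Benjamini-Hochberg adjustment over all 22180 genes at 0.05. No statement gives separate animals beyond the pools, so p-values measure the spread between arrays. Promoters were those of the RefSeq table. Array scripts were tested on simulated data.

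The 10 genes, the gene lists and the markers were chosen with earlier results of these data known. Named were the 10 genes, all SRF cofactors, all called genes of the other lists, 15 fixed list genes, the 5 profiles nearest to *Abra*, and markers that were called or defining and low. The alternatives were no pairing, quantile normalization, median centring, averaged probe sets, *Z* scores over all probe sets, no genes of low signal, a robust scale, a stricter *Z*-ratio limit (two-sided p of 0.01 in place of 0.05), and leaving out each pair or array.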

Additional observations from a re-analysis of the deposited data

Results flagged for a closer look

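Of a fixed set of 35 named genes, which left out most markers, 10 changed in opposite directions in the 2 pairs of arrays. So did 8809 (39.7%) of all genes. These pairs carry different sex labels, which go against the data, and each is 1 *Gak*-KO array against 1 control, so the difference between the pairs was not tested. Among the 10 genes of the SRF pathway, the change in pair 2 minus that in pair 1 was -1.33 for *Cnn1*, -0.59 for *Srf*, 0.35 for *Fhl2* and 0.21 for *Lmod1*. For *Cnn1* and *Srf*, control 1 had the lowest signal of the 4 arrays. In the other lists, it was -0.41 for *Myh11*, -0.31 for *Acta1*, -0.23 for *Actc1*, 0.22 for *Rhoa*, 0.19 for *Cnn3* and 0.09 for *Egr1*. Some markers outside this set also had opposite signs, such as *Lyz2* with 1.65 and *Slc22a6* with -1.32.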

How the results depend on the processing

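Of the 10 genes, 3 were called, and of all genes 165. Without the replicate block (group means, no pairing), 7 and 1199 were called, as were 13 other contractile genes, 3 immediate early genes, 1 RhoA and actin signaling gene and 1 paralog. With *Z* scores over all probe sets, 1 of the 10 genes and 41 of all were called, with 1 contractile gene and 0 immediate early genes. At the limit for a p of 0.01 the counts were 1, 59, 1 and 0. With a robust scale, 392 of all genes, 9 contractile genes and 2 immediate early genes were called. Leaving out a pair or an array gave 1 to 5 of the 10 genes, 1108 to 1323 of all, 3 to 10 contractile genes, 1 to 2 immediate early genes, and 0 to 2 each of the cofactors, the signaling genes and the paralogs. A pair left out leaves the criterion in 1 pair, which more genes pass.

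The effect of array number was called for 0 genes, for 3225 after quantile normalization, 3618 after centring and 1083 without genes of low signal. With 1 mismatch, 5 in place of 3 of the genes held a CArG box. No direction of a called gene was reversed. The mean of *Srf* turned to -0.06 without pair 1 and to -0.15 without control 1. Groups that do not overlap were counted as 5 in each setting that can move the count, and pairing, the *Z*-ratio settings and left-out arrays gave no value for it. The 2 arrays per group limit the precision, and the cause of these differences was not tested.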
